A study of Mus musculus with 11 samples.

Results

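The cells described here are P1 cells that carry high levels of Oc90, which encodes otoconin-90, and little Myo6. They were chosen by 2 thresholds on the deposited natural-log values, an Oc90 value of at least 4 and a Myo6 value under 1.5. This left 146 of 14043 P1 cells, and they are called Oc90 cells below. Replicates 1 to 4 contributed 66, 16, 8 and 56 of them. Their share was 1.76%, 0.734%, 0.318% and 1.00% of the cells of the 4 libraries (mean 0.953% ± 0.607, SD, n = 4). All cells came from Wildtype CD1 mice, as single cells of the cochlear sensory epithelium of the inner ear, captured in droplets at E14, E16, P1 and P7 (30634 cells in 11 libraries). Each library was a separate collection in which cochleae of several animals of either sex were pooled, and the methods state that the roof and the lateral wall had been dissected away from the duct floor. The paper proposes that its small P1 cluster of Oc90-expressing cells was roof tissue captured along with the floor. The share of Oc90 cells given above is a share of the isolated cells, not of the whole duct. The main comparison set them against all other P1 cells of the same library. Cells passing the same 2 thresholds at E16 (435 of 7961 cells, 3 libraries) and E14 (844 of 5253 cells, 2 libraries) were compared with the other cells of their own age. At P1, cells of high Otoa, a gene of the medial floor (Otoa-gated cells), and of high Bmp4, a gene of the lateral floor (Bmp4-gated cells), served as further comparison groups.

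The cochlear duct is a closed epithelial tube whose floor carries the hair cells and supporting cells, and whose roof becomes the thin Reissner's membrane. Otoconin-90 is the main matrix protein of the otoconia, the calcium carbonate crystals of the vestibular organs, and it is also made by non-sensory epithelium of the embryonic inner ear, the cochlear roof included. Otx2, a homeodomain transcription factor, and Vmo1, a secreted protein named for the outer layer of the egg's vitelline membrane, are known markers of the roof.

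The members were selected on Oc90 and Myo6, so the levels of both genes are a description. Oc90 values in the members ran from 4.20 to 7.44, with a median of 6.16, and the gene took a median of 4.71% of a member's transcripts (lowest 0.658%, highest 17.1%), counted as unique molecular identifiers (UMIs). In units of UMIs per 1000000 UMIs of the cell (CPM), the mean Oc90 level was 52901, 62879, 43596 and 48646 in the members of replicates 1 to 4, and 89.2, 11.3, 23.5 and 68.4 in the other cells. Few cells lay near the threshold. Among cells with a Myo6 value under 1.5, 11275 held no Oc90 UMI, 7 lay just below the threshold (3.51 to 3.88) and 5 just above it (4.20 to 4.40), while 136 lay at 5 or more. Vmo1 UMIs were found in 5 of the 7 cells just below and in 4 of the 5 just above. A further 9 cells passed the Oc90 threshold and were left out for Myo6, which encodes the hair cell myosin VI. All 9 of these held a Vmo1 UMI and 1 held a UMI of the hair cell gene Pvalb. A Myo6 UMI was present in 30 of the 146 members.

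**Figure D1:**
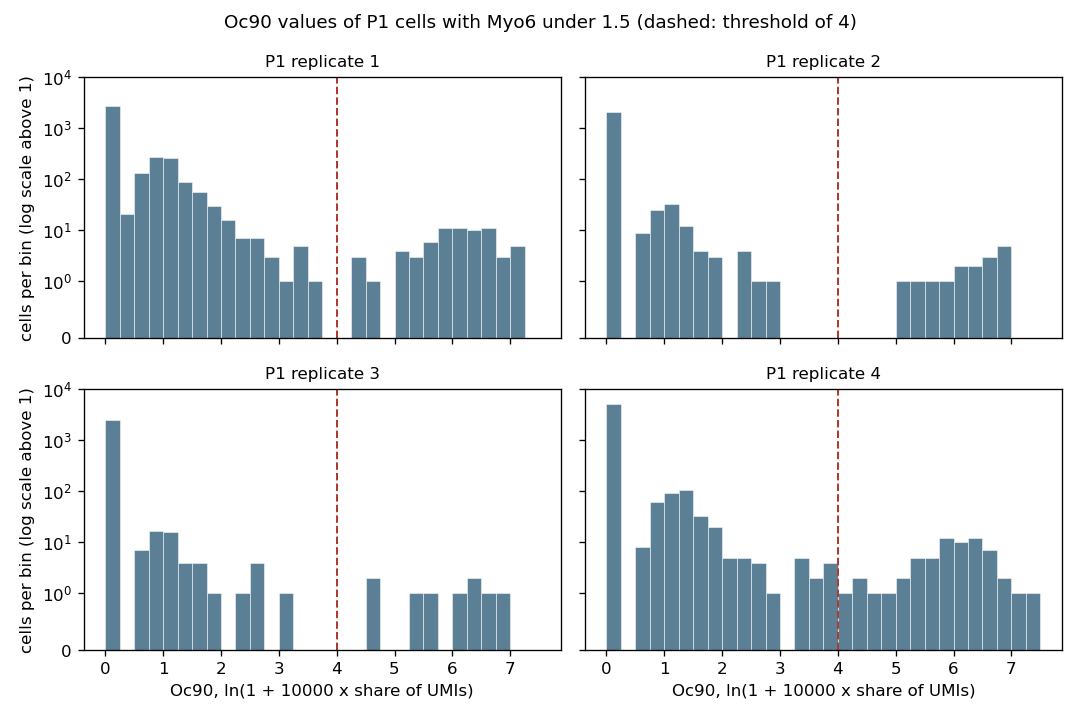
Number of P1 cells (vertical axis, log scale above 1) by Oc90 value (horizontal axis, natural log of 1 plus 10000 times the share of UMIs, bins of 0.25) in replicates 1 to 4, with the threshold of 4 dashed. Bars count all P1 cells of a library, whatever their Myo6 value, although the heading names Myo6 under 1.5. The 66, 16, 8 and 56 members lie to the right of the threshold, together with the 9 cells left out for Myo6. In replicate 4 cells run on through the threshold without an empty bin.

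Median sequencing depth was close in the 2 groups. Members had a median of 5159, 5885, 4940 and 3792 UMIs per cell in replicates 1 to 4, and other cells 5653, 5223, 5643 and 3832. The mean within-library difference was -144 ± 605 UMIs (SD, n = 4 libraries, exact sign-flip permutation test, two-sided, p = 0.625, where the smallest p allowed is 0.13). Of 13959 distinct P1 barcodes, 84 occurred in more than 1 library, and 1 member carried such a barcode. Scrublet called 2 of the 146 members as doublets. It marked 97, 41, 32 and 8 cells in the 4 libraries, and its calls in replicate 4, 0.143% of the cells, were not relied on. More than 3000 genes were detected in 24 members, namely 10 of 66, 5 of 16, 3 of 8 and 6 of 56 in replicates 1 to 4. Among all cells of these libraries they were detected in 350 of 3748, 170 of 2179, 311 of 2518 and 303 of 5598. Such large cells thus made up a larger share of the members in each library. Replicate 3 rests on 8 cells, so that its values are the least precise.

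Across all genes, 539 of 8858 tested (6.08%) were higher in the Oc90 cells and 788 (8.9%) were lower (limma on log2(CPM + 10), adjusted p under 0.05). Of these 1327 genes, 1264 moved in the same direction in every library. Log2 differences are Oc90 cells minus the other cells, and their median over all genes tested was -0.12. Averaging natural-log values in place of CPM moved that median by 0.12, so small differences are read against this shift. The cells were gated on Oc90 in the same libraries, so the comparison says which other genes were high or low in the same cells. A gene had to average 10 CPM over the compared profiles, and some passed only through the group in which they were high, so counts over the tested genes of a list are descriptions.

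Both further roof markers were high in the Oc90 cells. Vmo1 (chromosome 11, 70513516 to 70514616, minus strand, mm10) stood at 9954, 7632, 5164 and 5969 CPM in replicates 1 to 4, against 21.3, 2.90, 4.32 and 9.50 CPM in the other cells. The groups did not overlap, and the log2 difference was 8.57 ± 0.20 (SE, n = 4, limma adjusted p = 6.2e-17). With every cell sampled to 1500 of its UMIs, a depth that all cells reached, a Vmo1 UMI was found in 135 of 146 members (92.5%, exact 95% interval 86.9 to 96.2%) and in 0.518% of the other cells. Otx2 (chromosome 14, 48657677 to 48673819, minus strand) was far less abundant, at 108, 105, 33.2 and 167 CPM in the members and 0.628, 0.291, 0.307 and 0.449 CPM in the other cells. Its log2 difference was 3.27 ± 0.41 (adjusted p = 9.4e-06), and again the groups did not overlap. At 1500 UMIs a cell, 31 members (21.2%, exact 95% interval 14.9 to 28.8%) and 0.0504% of the other cells held an Otx2 UMI. Without the drawing down it was 39.7% of the members. The share of cells with a UMI thus followed depth for Otx2, and the intervals cover counting error only.

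Since Vmo1 and Otx2 were high in the same cells, the Vmo1 start region is shown with the letters TAATCC in capitals, a core that Otx-type homeodomain proteins are known to bind. The window spans 250 bases before to 50 after the RefSeq start (GRCm38.p6, chr11:70514567-70514866, minus strand), and it is printed 5′ to 3′ on the gene's strand.
Vmo1: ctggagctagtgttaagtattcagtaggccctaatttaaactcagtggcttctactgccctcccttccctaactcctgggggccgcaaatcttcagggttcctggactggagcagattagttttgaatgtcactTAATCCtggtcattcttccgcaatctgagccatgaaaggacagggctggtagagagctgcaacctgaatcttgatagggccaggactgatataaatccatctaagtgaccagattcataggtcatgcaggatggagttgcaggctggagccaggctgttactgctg
The match began 116 bases before the start. RefSeq windows were found for 12 of the 16 genes made up of Oc90 and the 15 genes with the largest differences, and Vmo1 was the 1 gene of the 12 with TAATCC on either strand. TAATCC or its reverse complement GGATTA occurred in 7.35% of the 408 genes higher in Oc90 cells that had a window, in 6.77% of all 6810 tested genes with a window, and in 8.14% of all 27025 genes with a window. The T-box core AGGTGT, or ACACCT, was found in 13.0% of the higher genes and 12.4% of those tested. The shares are close, and a match in letters is not a binding site.

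A list of 12 roof genes, put together with earlier results of these data known, held Oc90 and 11 genes that passed the filter on low values. Of these 11, 9 were higher and 2 were lower in the Oc90 cells, with a median log2 difference of 2.45, against 6.08% higher and 8.9% lower of all genes. Lmx1a, a LIM homeodomain factor needed for inner ear patterning, stood at 130, 116, 132 and 157 CPM in the members and 0.632 to 2.24 CPM in the other cells (log2 difference 3.67 ± 0.36, adjusted p = 3.7e-07). Wnt4, a secreted Wnt ligand, stood at 150, 155, 223 and 163 CPM against 2.67 to 3.15 CPM (3.81 ± 0.34, adjusted p = 1.1e-07). Fgf9, an FGF ligand, ranged from 34.2 to 137 CPM in the members against 2.34 to 4.45 CPM (2.45 ± 0.41, adjusted p = 0.00024). In these genes each library's members exceeded every library of the other cells.

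Meis2, a TALE homeodomain factor, was higher in all 4 libraries (log2 difference 2.45, adjusted p = 0.00019). Otx1 (1.64, adjusted p = 0.025), Meis1 (1.36, adjusted p = 0.046) and Slc26a7, an anion exchanger gene (1.68, adjusted p = 0.017), each held no UMI in the members of 1 library and lost the call under several alternatives. Sparcl1, which encodes a matrix protein related to SPARC, was lower, at 93.9, 102, 272 and 384 CPM in the members against 1045 to 1594 CPM in the other cells (-2.87 ± 0.23, adjusted p = 3.5e-08). Gata2, a zinc finger transcription factor, stood at 83.0, 39.1, 0 and 53.4 CPM against 51.9 to 160 CPM. Its groups overlapped, and its log2 difference of -1.21 (adjusted p = 0.041) lost the call without replicate 2, 3 or 4.

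Among the 15 genes with the largest differences, Vmo1 was followed by Rnase1, a secreted ribonuclease, at 4736, 1434, 2339 and 5341 CPM in the members and 8.30 to 30.4 CPM in the other cells (log2 difference 6.99 ± 0.24, adjusted p = 5.2e-14). Rnase4, another ribonuclease gene on chromosome 14, stood at 899, 280, 695 and 223 CPM against 0.916 to 3.01 CPM (5.23 ± 0.34, adjusted p = 1.0e-09). Ttr, which encodes transthyretin, a carrier of thyroid hormone, stood at 2315, 1368, 878 and 882 CPM against 0 to 6.66 CPM (6.57 ± 0.28, adjusted p = 1.6e-12). For each of these genes the members of every library lay well above all libraries of the other cells. Postn, the matrix protein periostin, stood at 495, 333, 613 and 573 CPM against 0.227 to 1.89 CPM (5.53 ± 0.30, adjusted p = 1.2e-10). Gpx3, a secreted glutathione peroxidase, ranged from 70.0 to 562 CPM in the members, against 0.546 to 2.40 CPM (4.25 ± 0.40, adjusted p = 2.0e-07). Crhbp, whose product binds corticotropin-releasing hormone, ranged from 258 to 659 CPM in the members (4.96 ± 0.31). Igfbp2, an insulin-like growth factor binding protein, ranged from 169 to 897 CPM against 16.6 to 45.6 CPM in the other cells (3.73 ± 0.32).

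Of the rest of these 15, Cndp2, a cytosolic dipeptidase, stood at 2874, 1807, 2144 and 2087 CPM in the members against 55.96 to 86.9 CPM (4.78 ± 0.19, adjusted p = 9.0e-13). Fam20a, a pseudokinase of the secretory pathway needed for enamel, stood at 218 to 403 CPM against 9.32 to 12.9 CPM (4.04 ± 0.29). Lypd2 (5.29), Dapl1 (5.28), Bricd5 (4.56) and Hspb1, a small heat shock protein gene (5.10), completed the 15. Drawn to 1500 UMIs, the members held UMIs of a median of 7 of the 15 genes, and 136 of 146 (93.2%) held at least 3. Of the 13897 other cells, 25 (0.180%) held at least 3, and the highest of them held 13. Since the 15 genes were picked in these cells, the shares describe how the genes fall together in single cells and test nothing.

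**Figure D2:**
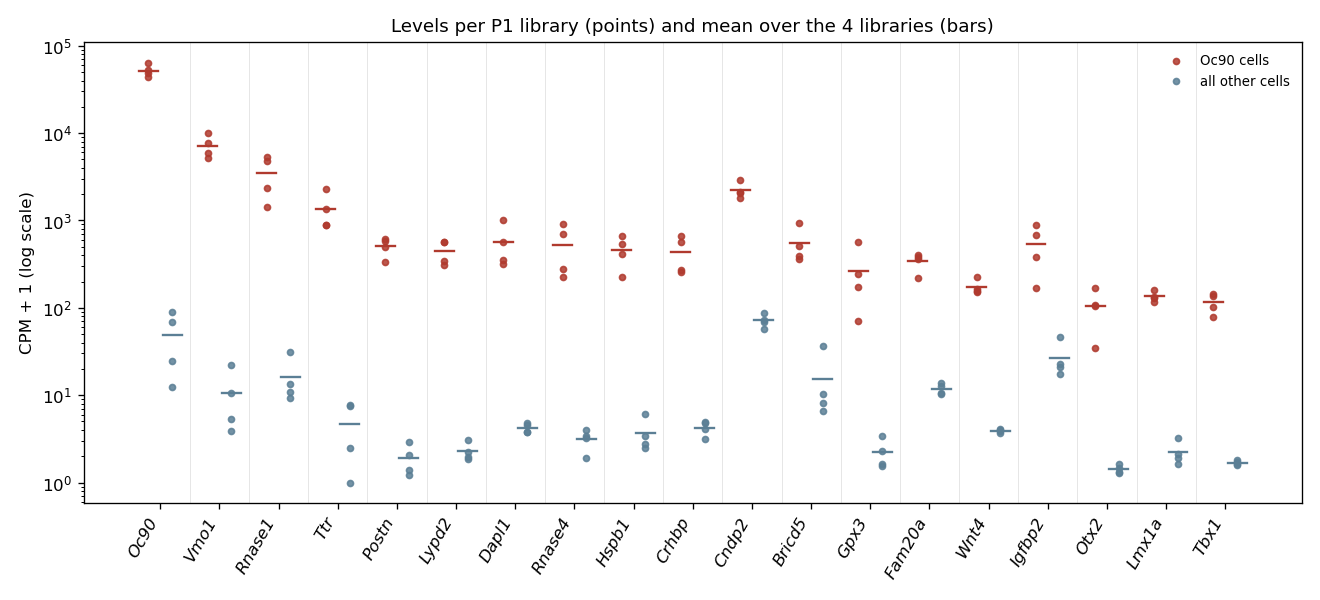
CPM plus 1 (log scale) of Oc90, the 15 genes with the largest differences, Otx2, Lmx1a and Tbx1 in each P1 library (points) for Oc90 cells and all other cells, with bars at the mean over 4 libraries. In each gene shown the lowest member library lies above the highest library of the other cells.

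Single members differed in which of these genes they held, as read without drawing down. Both Ttr and Postn UMIs were found in 55 members, Postn alone in 47, Ttr alone in 7 and neither in 37. Every member with an Otx2 UMI (58) also held Vmo1, while 81 held Vmo1 alone. Otx2 and Lmx1a UMIs met in 28 members, with 30 holding only Otx2 and 28 only Lmx1a. At this depth a missing UMI does not show that a gene was off.

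Of 15 otoconial and matrix genes, 10 were tested, and 3 were higher and 2 lower, against 6.08% and 8.9% of all genes. Otog, which encodes the glycoprotein otogelin (log2 difference 1.13 ± 0.26, adjusted p = 0.0056), Cyba, a subunit of NADPH oxidases (0.85 ± 0.22, adjusted p = 0.011), and Atp2b2, a plasma membrane calcium pump (1.63 ± 0.40, adjusted p = 0.0079), were higher. Sparcl1 and Tecta were lower, and 5 did not pass the test. The list's median was 0.58. Otol1, the gene of otolin, stood at 152, 50.4, 87.0 and 15.3 CPM against 29.8 to 55.1 CPM (0.51, adjusted p = 0.40). Sparc stood at 2168, 3724, 3074 and 2945 CPM against 1559 to 2985 CPM (0.27, adjusted p = 0.11). Otoa, by which the Otoa-gated cells were chosen, was not called against all other P1 cells (0.82, limma adjusted p = 0.20) and was higher against Bmp4-gated cells (3.34, limma adjusted p = 0.00034). Drawn to 1500 UMIs, 14 of 146 members (9.59%) and 5.19% of the other cells held an Otoa UMI, so the Oc90 cells did not lack it. Otop1, the proton channel gene otopetrin 1, held no UMI in any member.

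Of 23 tested claudin and junction genes, 8 were higher and 4 lower (median 0.35), against 6.08% and 8.9% of all genes. Cldn4 stood at 1405, 3126, 3663 and 2689 CPM in the members against 120 to 549 CPM (3.24 ± 0.21, adjusted p = 9.8e-10). Cldn22 stood at 156, 109, 94.8 and 15.3 CPM against 0.129 to 0.431 CPM (3.05 ± 0.45, adjusted p = 6.1e-05). Cdh4, a cadherin gene (-1.99), and Cldn23 (-1.76) were lower. Against Otoa-gated cells 5 of 22 claudin and junction genes were higher and 5 lower (median 0.24). Cldn6, higher in the main comparison, was among those lower there. Against Bmp4-gated cells 4 of 22 were higher and none lower (median 0.28). The simple epithelial keratins Krt8 (1.79), Krt18 (2.34) and Krt19 (2.76) were each higher in all 4 libraries, 3 of 5 keratins tested. Against Otoa-gated cells 1 of 6 keratins, Krt18, was higher and 2, Krt7 and Krt15, were lower (median -0.82). Against Bmp4-gated cells 3 of 4 were higher and none lower (median 1.17). For both lists the shares of all genes were 5.66% higher and 4.79% lower against Otoa-gated cells, and 3.56% and 3.23% against Bmp4-gated cells. Of 17 basement membrane and matrix genes, 8 were higher and none lower than in all other P1 cells (median 0.86), against 6.08% and 8.9% of all genes. Among them were Frem1 (2.69) and Frem2 (2.85), whose proteins anchor epithelium to the layer beneath it, Npnt (2.27) and the collagen IV gene Col4a1 (2.03). Against Otoa-gated cells 5 of 19 were higher and none lower (median 0.32, with 5.66% and 4.79% of all genes), and Col4a1 was not called (-0.73, limma adjusted p = 0.085). Against Bmp4-gated cells 5 of 18 were higher and 1, Npnt, was lower (median 1.10, with 3.56% and 3.23% of all genes). Frem2 was not called there (1.29, limma adjusted p = 0.065). Of 3 connexin genes tested, 2 were lower and none higher. Gjb2, the connexin 26 gene and a major deafness gene, stood at 31.8, 0, 44.7 and 115 CPM in the members against 705 to 807 CPM (-4.20 ± 0.36, adjusted p = 5.6e-08), and Gjb6 was lower too (-2.95). Against Otoa-gated cells none of the 3 was called (median 0.37, with 5.66% of all genes higher and 4.79% lower), and against Bmp4-gated cells Gjb2 was lower (-2.35) and none was higher (3.23% and 3.56% of all genes). Ion and fluid transport genes were split, with 4 higher, 4 lower and 12 of 20 not called. The sodium-potassium-chloride cotransporter gene Slc12a2 (-2.70), the carbonic anhydrase gene Car2 (-2.11) and Ano1 (-2.06), which encodes a calcium-activated channel, were among the lower.

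Genes of the sensory floor were lower or not called. The members were selected for low Myo6, a hair cell gene, while the other cells include the hair cells, so the low hair cell genes follow in part from the rule and are a description. All 15 hair cell genes tested were lower, against 8.9% of all genes, with a median of -2.54, or -2.13 with the 2 genes that held no UMI in the members set to the level of 3 UMIs (3.78 CPM). The sum of 20 hair cell genes was 290 to 945 CPM in the members and 2568 to 3398 CPM in the other cells, and 6 of the 20, Myo7a, Myo15, Gfi1, Atoh1, Barhl1 and Tmc1, were at 0 in every library of the members. Cib2, a partner of the mechanotransduction channel, stood at 19.9, 55.6, 23.4 and 17.5 CPM against 401 to 559 CPM (-3.70 ± 0.26, adjusted p = 4.3e-09). Of 29 tested sensory and supporting cell genes, 19 were lower and none higher (median -1.40), against 8.9% and 6.08% of all genes. Examples from this comparison are the Notch effectors Hes5 (-3.25) and Hey1 (-3.27) and the neuropeptide gene Npy (-3.32), of which only Hey1 was also lower against Bmp4-gated cells and none was called against Otoa-gated cells. Against Otoa-gated cells 4 of 18 were higher and 3 lower (median 0.50), and against Bmp4-gated cells 2 of 22 were higher and 5 lower (median -0.72). The hair cell list had 1 higher and 3 lower of 7 tested against Otoa-gated cells and 1 higher and none lower of 5 against Bmp4-gated cells. The shares of all genes were 5.66% higher and 4.79% lower against Otoa-gated cells, and 3.56% and 3.23% against Bmp4-gated cells.

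Tectorial membrane and Kölliker's organ genes, which mark the medial floor, were lower in 15 of 20 and higher in 3 (Cnmd, Otog and Ptgds), against 8.9% and 6.08% of all genes, with a median of -1.72. Against the Bmp4-gated cells, 5 of 20 were higher and 4 lower (median 0.66), with 3.56% and 3.23% of all genes, and against Otoa-gated cells 2 of 19 were higher and 12 lower (median -0.91), with 5.66% and 4.79% of all genes. Calb1, a calcium buffer, stood at 101, 16.0, 0 and 27.7 CPM against 498 to 1266 CPM (-4.65 ± 0.34, adjusted p = 5.8e-09). Tecta, the alpha-tectorin gene, ranged from 11.04 to 168 CPM against 928 to 1267 CPM (-4.36 ± 0.39), and Tectb, the beta-tectorin gene, stood at 96.5, 24.2, 11.7 and 140 CPM against 666 to 2345 CPM (-4.22 ± 0.35). Epyc, a small leucine-rich proteoglycan (-4.45), and Crabp1, a retinoic acid binding protein (-4.60), were lower in every library. Lateral floor genes were lower in 4 of 6 tested (Clu, Fst, Gata2 and Pmch) and higher in none, with a median of -1.30, while against Otoa-gated cells 2 of 3 were higher and none lower, and against Bmp4-gated cells none of 6 was higher and 4 were lower (median -3.05), with the same shares of all genes as just given. Clu, the gene of the chaperone clusterin, was among the most abundant transcripts of the other cells, at 15369 to 21572 CPM, and stood at 2925, 1685, 2007 and 4622 CPM in the members (-2.85 ± 0.15, adjusted p = 1.2e-10).

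Transcription factors of otic patterning divided into 9 higher and 8 lower of 25 tested (median 0.37). For this list and the pathways that follow, the shares over all genes were 6.08% higher and 8.9% lower. Tbx1, a T-box factor required for inner ear development, stood at 102, 143, 78.4 and 137 CPM in the members against 0.601 to 0.819 CPM (3.51 ± 0.37, adjusted p = 1.2e-06). Tbx3 stood at 77.7, 37.8, 42.5 and 92.2 CPM against 0 to 0.308 CPM (2.77 ± 0.40, adjusted p = 5.2e-05). The groups did not overlap in either. Among signalling genes, 7 of 25 Wnt pathway genes were lower and 2 higher (median -0.67), with Wnt4 the larger of the 2 and Dkk3 (-2.69), a Dickkopf family gene, among the lower. Dkk3 was higher against Otoa-gated cells (1.51), and was not called against Bmp4-gated cells (1.51). The FGF pathway had 3 higher and 4 lower of 13 (median 0.36), with the receptor gene Fgfr2 higher (2.02) and Fgf10 (-1.63) among the lower. The BMP and TGF-beta pathway had 5 lower and 1 higher of 17, the latter near the share over all genes (median -0.18), with the follistatin-related gene Fstl1 (-3.30) and Tgfb2 (-3.26) among the lower. Of 9 retinoic acid genes, 3 were lower (median 0.19), namely Crabp1, Crabp2 (-1.81) and Cyp26b1 (-2.08), an enzyme that degrades retinoic acid. Of 13 cell cycle genes, the cyclin genes Ccnd1 (1.37) and Ccnd2 (3.08) and the inhibitor gene Cdkn1a (2.57) were higher, and the inhibitors Cdkn1b (-1.35) and Cdkn1c (-0.82) were lower (median 0.37). Cdkn1c turned to 0.0876 under the mean of natural-log values. Ccnd1 was higher against Otoa-gated cells (2.43) and lower against Bmp4-gated cells (-2.03). Cdkn1a was not called against Otoa-gated cells (0.15, limma adjusted p = 0.80) and was higher against Bmp4-gated cells (2.77).

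**Figure D3:**
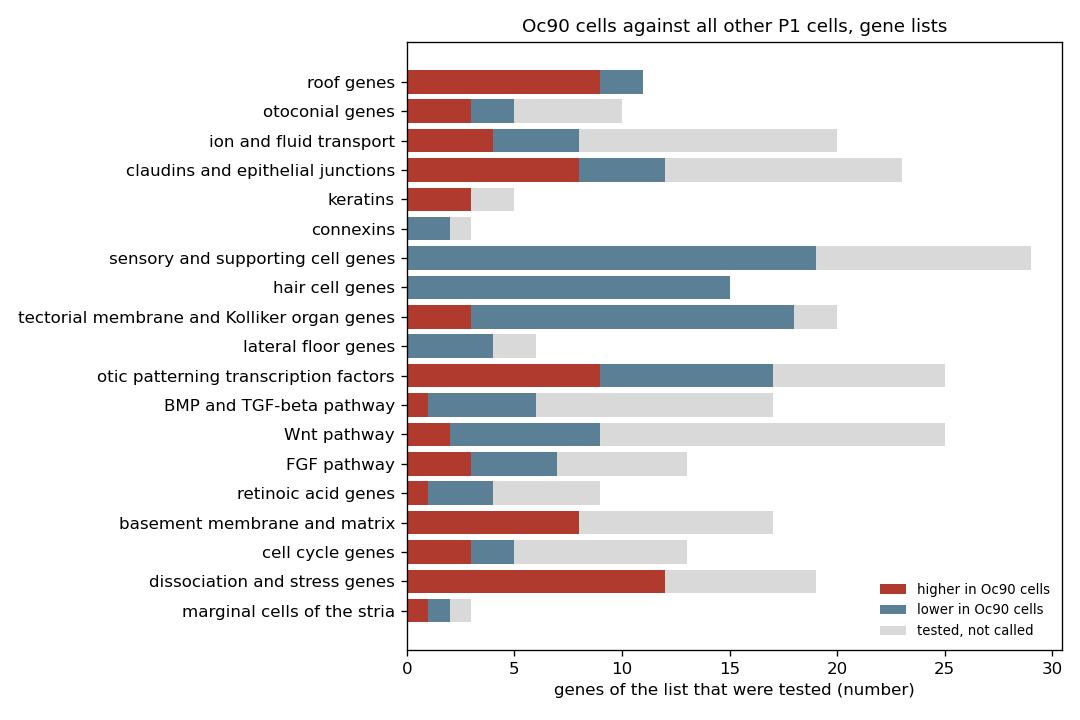
Number of tested genes of each list (horizontal axis) that were higher, lower or not called in Oc90 cells against all other P1 cells. All 15 hair cell genes are lower, while basement membrane, keratin and stress genes have none that is lower.

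Of 19 tested dissociation and stress genes, 12 were higher and none lower (median 1.02), against 6.08% and 8.9% of all genes, and the list summed to 12333 to 14708 CPM in the members and 5364 to 7955 CPM in the other cells, without overlap. Zfp36 (2.32), Ier3 (2.01) and Fosb (1.89) were among them, as were the heat shock genes Hspb1 and Dnajb1, while Hspa1a, Hspa8 and Hsp90aa1 did not pass the test. Against Otoa-gated cells 5 of 19 were higher and 1, Egr1, was lower (median 0.32), with 5.66% and 4.79% of all genes. Against Bmp4-gated cells 11 of 19 were higher and none lower (median 1.26), with 3.56% and 3.23% of all genes. The part of these genes in the other differences was not tested. The 5 leukocyte markers held no UMI, and of 8 mesenchyme markers Col1a1, Col3a1, Tbx18 and Pou3f4 were at 0 while Postn gave 495, 333, 613 and 573 of a summed 338 to 613 CPM, against 10.5 to 39.2 CPM in the other cells. Of the 8 markers of strial marginal cells, Esrrb and Bsnd were among those at 0 and the sum was 107 to 492 CPM, against 274 to 466 CPM. Of the 4 spindle and root cell markers the sum was 62.5 to 324 CPM against 16.4 to 33.1 CPM, and Anxa1, an annexin gene, was higher in all 4 libraries (3.35, adjusted p = 1.3e-05). Melanocyte, glial, endothelial, red cell and neuronal lists summed to at most 13.4, 109, 72.4, 9.20 and 8.91 CPM in any member library, against 7.70, 355, 48.2, 64.2 and 92.1 CPM in the other cells. Of the few genes of these lists that were tested, Fabp7, Nefl and Nefm were lower, and the members held no UMI of Nefl or Nefm.

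To set the Oc90 cells against other non-sensory cells of the floor, they were compared with cells of high Otoa, a gene of interdental cells on the medial side (158, 30 and 128 cells in replicates 1, 2 and 4, with the 2 such cells of replicate 3 left out), and with cells of high Bmp4, a gene of the lateral floor (74, 9, 6 and 35 cells). Against the Otoa-gated cells 483 of 8540 genes (5.66%) were higher and 409 (4.79%) lower, and against the Bmp4-gated cells 312 of 8768 (3.56%) were higher and 283 (3.23%) lower. All 15 of the highest genes above were higher against each of these groups. Of the 15 lowest genes, fewer were called here, with 8 lower and 1 higher (Crabp1) against the Otoa-gated cells and 1 lower of 14 against the Bmp4-gated cells. These comparisons share the Oc90 profiles with the main one. Averaging natural-log values moved the share of higher calls against the Bmp4-gated cells from 52.4% to 34.3%.

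The genes given next were picked for the lowest differences against each gated group. Smoc2, a matricellular protein gene, stood at 2028, 3302 and 2757 CPM in Otoa-gated cells of replicates 1, 2 and 4 and at 3.55, 24.2 and 40.0 CPM in the members of those libraries (log2 difference -6.54 ± 0.25, adjusted p = 1.2e-26). Matn1, a matrilin gene (-5.72), the long non-coding RNA H19 (-5.29) and Cdkn1c (-4.61) were also lower. Fxyd6 (-5.63) stood at 829, 1899 and 1144 CPM in the Otoa-gated cells and at 11.96, 8.91 and 26.3 CPM in the members of these 3 libraries. Against Bmp4-gated cells, Fst, the gene of the BMP and activin antagonist follistatin, stood at 351, 1940, 1123 and 1070 CPM there and at 1.94, 0, 0 and 0 CPM in the members, a single UMI in all (adjusted p = 2.3e-08). Fbln2, a fibulin gene (-6.31), Serpina3a (-5.12), Igfbp4 (-4.98) and Itih5 (-4.96) were lower as well. Npnt was higher against the Otoa-gated cells (3.20) and lower against the Bmp4-gated cells (-2.48), and Gata2 likewise (2.04 and -3.87). Krt19 was higher against Bmp4-gated cells (2.31), and stood at 719, 1194 and 203 CPM in Otoa-gated cells against 512, 930 and 205 CPM in the members there (-0.28, adjusted p = 0.48).

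**Figure D4:**
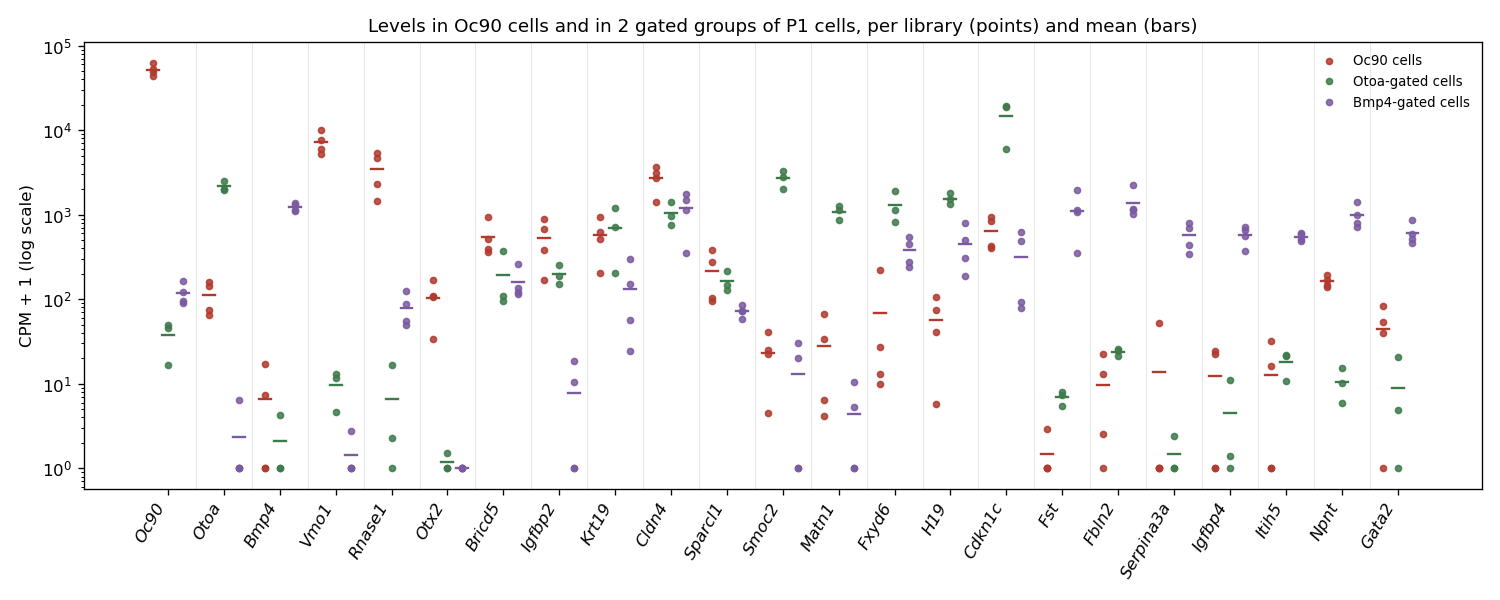
CPM plus 1 (log scale) in each P1 library (points) and mean (bars) for Oc90 cells, Otoa-gated cells (3 libraries) and Bmp4-gated cells (4 libraries). Vmo1, Rnase1 and Otx2 are high in the Oc90 cells, Smoc2 to Cdkn1c are highest in Otoa-gated cells, and Fst to Gata2 are highest in Bmp4-gated cells.

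The same thresholds were applied to libraries of earlier ages, each compared within its own table because the tables were normalized separately. At E16, 705 of 9141 genes (7.71%) were higher and 617 (6.75%) lower in Oc90-gated cells. At E14, 1695 of 9003 (18.8%) were higher and 1990 (22.1%) lower, from 2 libraries with 1 residual degree of freedom per gene. Averaging natural-log values moved the share of higher calls from 53.3% to 68.0% at E16 and from 46.0% to 67.2% at E14. Of the P1 genes called higher and tested at the other age, 325 of 494 (65.8%) were also higher at E16, which is 50% of the E16 list tested at P1, and 369 of 469 (78.7%) at E14, which is 23.6% of the E14 list. Of those called lower, 390 of 735 (53.1%) were lower at E16, 65.8% of that list, and 460 of 676 (68.0%) at E14, 25.7% of that list. Genes called in the opposite direction numbered 1 at E16 and 11 at E14 for the higher genes, and 6 and 44 for the lower. All 14 of the 15 highest P1 genes that were tested at E16, and all 13 tested at E14, were higher, and all 15 of the lowest were lower at both ages.

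Levels in Oc90-gated cells are given side by side for each age. Vmo1 stood at 271, 236 and 597 CPM in Oc90-gated cells at E16 (log2 difference 4.77 ± 0.23, adjusted p = 5.8e-08) and at 93.6 and 65.2 CPM at E14 (3.04 ± 0.15, adjusted p = 1.6e-09), against 5164 to 9954 CPM at P1. Rnase1 stood at 163, 121 and 440 CPM at E16 and 43.7 and 16.8 CPM at E14, against 1434 to 5341 CPM at P1. Otx2 stood at 144, 119 and 124 CPM at E16 (3.67 ± 0.26, adjusted p = 6.9e-07) and 136 and 110 CPM at E14 (adjusted p = 1.8e-10), levels that overlap those at P1. Ttr stood at 1205, 603 and 2345 CPM at E16 and 481 and 254 CPM at E14, and the E16 levels overlap those at P1. No test was made between ages.

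**Figure D5:**
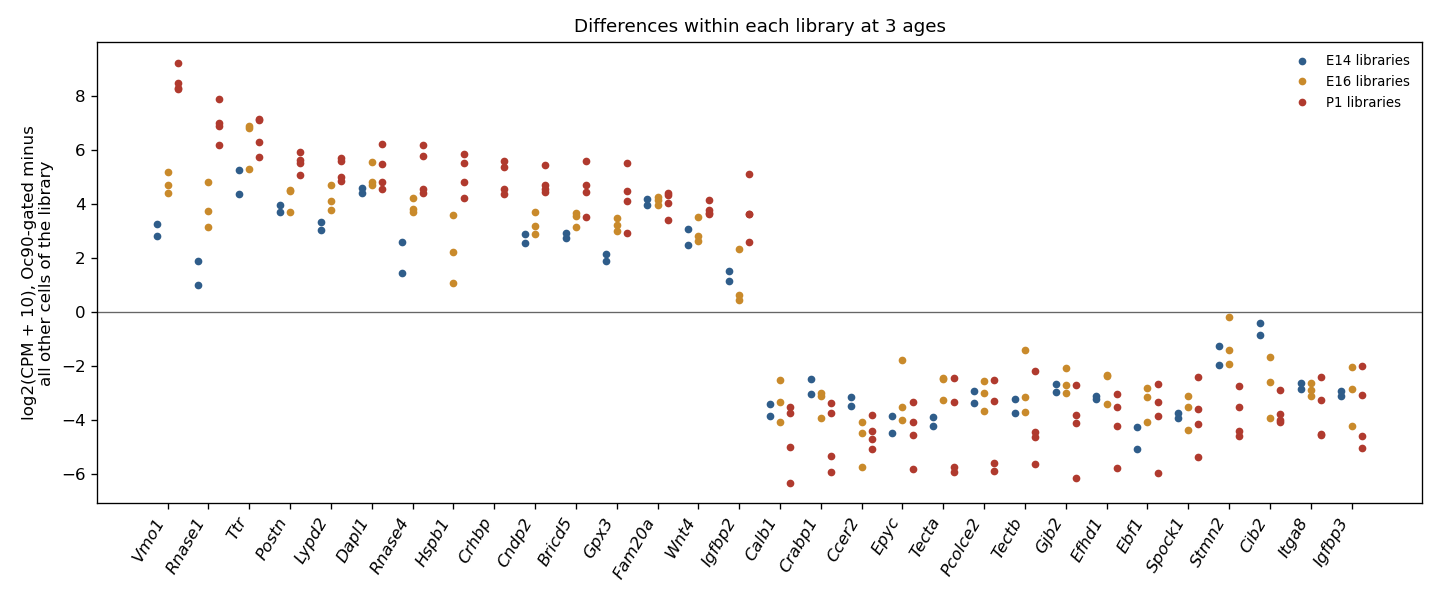
Difference in log2(CPM + 10) between Oc90-gated cells and all other cells of the same library (vertical axis) for the 15 highest and 15 lowest P1 genes, 1 point for each library at E14, E16 and P1. Points of the 15 highest genes lie above 0 and those of the 15 lowest lie below 0 at every age, where plotted (Crhbp is plotted at P1 alone and Hspb1 at P1 and E16).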

How the data were processed

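The samples were 11 droplet libraries of wild-type CD1 mouse cochlear cells, 4 of them at P1. The authors aligned reads to mm10 with Cell Ranger 2.1.1, applied limits on genes, UMIs, mitochondrial and stress gene content per cell in Seurat 2.0, and deposited natural log values, ln(1 + 10000 × share of UMIs), for each gene and cell. Dividing out the scale returned whole UMI numbers, within 2%, for 100% of deposited values above 0. P1 libraries held 2179 to 5598 cells, with median depths of 3832 to 5648 UMIs. No file used here types the cells.

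CPM was averaged over the cells of a group in each library, groups under 5 cells were left out, and log2(CPM + 10) was tested with limma 3.58.1 in R 4.3.3 (mean trend, mean of at least 10 CPM, Benjamini-Hochberg adjustment over all genes). Both profiles of a pair come from 1 library, so library was a block. UMI sums were simulated for the main comparison (8858 genes, 200 of them changed). Of genes changed by 1, 2 and 3 on the log2 scale, 32.3%, 63.6% and 91.7% were recovered, and 2.29% of calls were false. The simulation did not model the spread between single cells of a group, so these rates need not hold for the real profiles. Otoa-gated cells had an Otoa value of at least 2.5 and Bmp4-gated cells a Bmp4 value of at least 2. Genes named were the markers, the 15 largest and 15 smallest differences among called genes of 1 direction in every library, up to 4 called genes of largest difference in each list, all roof and otoconial genes, and the 5 largest and 5 smallest differences against each gated group. Gm-numbered, Rik-numbered, mitochondrial, ribosomal protein, haemoglobin and sex-linked genes were not named. Some genes that the rule names are not reported here. Genes outside this rule were named after their values were seen. The members, lists and tests were chosen with earlier results of these data known. Alternatives covered the pseudocount, filter, averaging, totals, thresholds, doublets, large cells, the block, the comparison cells and each replicate left out.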

Additional observations from a re-analysis of the deposited data

Results flagged for a closer look

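Of 67 sets of 4 library values, 7 had a value set apart from the other 3, where chance gives about 1 in 20. In the Oc90 cells these were Myo6 in replicate 3 (90.0 CPM, others 26.7 to 36.4), Stmn2 in replicate 1 (9.41 CPM, others 0) and Cib2 in replicate 2 (55.6 CPM, others 17.5 to 23.4). In all other cells they were Bricd5 in replicate 1 (35.5 CPM, others 5.60 to 9.43), Igfbp2 in replicate 4 (45.6 CPM, others 16.6 to 21.5), Spock1 in replicate 4 (650 CPM, others 401 to 408) and Stmn2 in replicate 4 (57.4 CPM, others 204 to 233). Myo6 helped to choose the members, and 3 of the 8 in replicate 3 held its UMIs. With the others at 0, any Stmn2 level above 0 in the members is set apart, and drawn to 1500 UMIs 1 member held it. The chance rate is not read for Myo6 or Stmn2 in the members.

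For 6 of the named genes every library of 1 age moved against every P1 library, and these differences between ages were not tested. Sparcl1 had a log2 difference of 0.35 in E14 Oc90-gated cells and -2.87 at P1. Gata2 had 0.58 at E16 and 0.54 at E14, against -1.21 at P1. Bambi, the gene of a BMP pseudoreceptor, had 0.54 at E14 and -1.16 at P1. H19 had 0.80 at E14 and -2.39 at P1, and Cdkn1c had 0.83 and -0.82. Ccnd1 went the other way, with -1.92 at E14 and 1.37 at P1.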

How the results depend on the processing

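Without the replicate block, which leaves the pairing by library unused, the calls higher and lower were 326 and 456 against all other P1 cells, 160 and 124 against Otoa-gated cells, 161 lower against Bmp4-gated cells, 428 and 331 at E16 and 1123 and 1200 at E14. With a pseudocount of 1 they were 338 and 415, 301 higher against Otoa-gated cells, and 200 and 186 against Bmp4-gated cells. With no filter on low values, 406 and 2906 genes were called against all other P1 cells, 271 and 237 against Otoa-gated cells, 129 and 112 against Bmp4-gated cells and 354 and 333 at E16. Without cells of over 3000 genes or 15000 UMIs the counts were 284 and 493, and 151 and 119 against Bmp4-gated cells. The mean of ln values gave 445 lower against Bmp4-gated cells, and 2684 and 1308 at E14.

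Leaving out 1 replicate in turn gave 330 to 562 higher and 450 to 684 lower against all other P1 cells, with 336 and 486 without replicate 1, 487 lower without replicate 2, and 330 and 450 without replicate 4. The ranges were 197 to 645 and 197 to 448 against Otoa-gated cells (197 and 197 without replicate 1, 307 higher without replicate 4), 198 to 306 and 194 to 254 against Bmp4-gated cells (198 higher without replicate 1, 207 without replicate 4), and 505 to 972 and 478 to 762 at E16. E14 was not run, since 1 library leaves no residual degree of freedom. The share of P1 cells ran from 0.684% (without replicate 1) to 1.17% (without replicate 3).

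Against Otoa-gated and Bmp4-gated cells together, 183 genes were higher and 177 lower, and 9 named genes took the opposite sign: Crabp1 (1.00), Tectb (0.93), Sparcl1 (0.16), Cdh4 (0.69), Npy (0.24), Hes5 (0.55), Dkk3 (1.61), Npnt (-0.95) and Ccnd1 (-0.65). The comparison cells differ by construction. Under the mean of ln values Cdkn1c had 0.0876, and the cause was not tested. For named genes in the main comparison, 1633 values kept their direction and side of the threshold, 113 lost the call (45 genes, Gata2, Meis1, Otx1, Slc26a7, Bambi and Cdkn1b among them) and 10 gained it. All 150 values of the 10 genes named against each gated group kept both. The Otx2 share was 39.7% without drawing down. The 8 members of replicate 3 and the depth limit what can be read for genes under about 10 CPM.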

Other observations

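The share of cells that passed the Oc90 and Myo6 thresholds was 14.2% and 17.4% in the E14 libraries, 4.25%, 3.52% and 7.25% at E16, and 0.318% to 1.76% at P1. At P7 it was 0 of 1775 cells in replicate 4 (exact 95% upper bound 0.208%) and 3 of 1602 cells in replicate 5 (0.187%). The methods state that the roof was dissected away, while the paper proposes that its P1 Oc90 cluster was roof tissue captured with the floor. The part of dissection in these shares was not tested.

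Spp1, the gene of the secreted phosphoprotein osteopontin, stood at 197, 163 and 14.7 CPM in E16 Oc90-gated cells and 0.537 to 4.34 CPM in the other E16 cells (log2 difference 2.98 ± 0.44, limma adjusted p = 0.00039, higher in 3 of 3 libraries). It stood at 4.59 and 3.38 CPM at E14, and 1 UMI was found in the 146 members at P1.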
